A study of Homo sapiens with 6 samples.

Results

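The mitochondrially encoded mRNAs of respiratory complexes III, IV and V were MT-CYB, MT-CO1, MT-CO2, MT-CO3, MT-ATP6 and MT-ATP8. They were chosen by gene name from the deposited count table and made up 6 of its 48162 genes, and 6 of the 13 mitochondrially encoded genes in it. Together they took 2.55 to 6.63% of the counts of a library. Their share of counts was higher with the miR-219 mimic than with the negative control mimic on each date of collection. The difference did not pass the test over all genes for any of them. With counts scaled between libraries, 5 of 6 were higher on each date, where 15.6% of all tested genes were. Without the mimic library of 22 August, the log2 fold changes of MT-CYB, MT-CO1, MT-CO2 and MT-CO3 were below 0. Between dates, both libraries of 22 August were above the 4 later ones for all 6 mRNAs. MT-CO2 and MT-CO3 passed the test for that date. The 7 mitochondrially encoded complex I mRNAs also had log2 differences above 0 for that date, and 0 of them passed.

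The mitochondrial genome is transcribed as long polycistronic RNAs that are cut, mostly at the tRNAs between the reading frames, into separate mRNAs. MT-CYB encodes cytochrome b, the membrane core of complex III. MT-CO1, MT-CO2 and MT-CO3 encode the core of cytochrome c oxidase, complex IV, which passes electrons to oxygen. MT-ATP6 and MT-ATP8 encode membrane subunits of ATP synthase, complex V, and are read from a single mRNA on which their frames overlap. All other subunits of these complexes are nuclear encoded and imported. The Argonaute proteins are nuclear encoded too.

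The libraries came from HEK293, an established human embryonic kidney cell line. The cells received a mimic and a Flag-tagged Ago2, the Argonaute that holds the guide strand in the RNA-induced silencing complex. The mimic was that of microRNA-219, a synthetic RNA that acts as the mature microRNA, in 3 libraries and a negative control mimic in the other 3. Both groups carried Flag-Ago2, which was pulled down through its tag, and the co-purified RNA was sequenced. Each group had 1 library from each of 22 August, 5 September and 18 September. Input RNA was not used here, so a level mixes the amount of an RNA in the cell with the amount that came down with Ago2, and fewer cells and less RNA per cell cannot be told apart. No library used here came from cells without Flag-Ago2, so RNA bound to Ago2 cannot be told apart from RNA carried along otherwise. The labels do not say whether the dates were separate cultures, so p-values measure the spread between these libraries, which may be technical.

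The labels do not give the sequence of the mimic or the strand it carries. The mature strands that RefSeq lists for MIR219A2, the gene of the microRNA-219a-2 in the title of the study, are shown with the seed (bases 2 to 8), the part that pairs with targets, in capitals. They lie on the minus strand at chr9:128392676-128392696 (5p) and chr9:128392632-128392653 (3p) of GRCh38.p14.
hsa-miR-219a-5p: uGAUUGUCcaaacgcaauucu
hsa-miR-219a-2-3p: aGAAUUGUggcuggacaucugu
The seeds of these strands differ from each other. The sequences of the mitochondrial mRNAs were not used here, so sites for either strand were not searched.

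Total counts ran from 20379336 to 31490366 over the mimic libraries and from 20233819 to 34408699 over the control libraries. AGO2, the transfected gene, took 13.5, 16.7 and 12.6% with the mimic, against 11.7, 18.0 and 10.6% with the control. The 5 HEK293 markers examined (PAX2, NEFM, NEFL, SOX11 and EGR1) were all detected and summed to 536 to 648 CPM (counts per 1000000 counts of the library) with the mimic and 477 to 540 CPM with the control. Of markers of other cell types, the 5 intestinal ones summed to 9.24 to 27.3 CPM with the mimic and 13.3 to 33.8 CPM with the control, the 4 plasma cell ones to 0.0318 to 7.02 CPM and 0.0581 to 17.0 CPM with IGKC at 0 in every library, and the 4 muscle ones to 5.33 to 7.56 CPM and 4.39 to 6.24 CPM. The 4 red cell markers summed to 0.0318 to 0.196 CPM in mimic libraries, and among control libraries to 688 CPM on 5 September and at most 0.198 CPM otherwise. Their part in the results was not tested.

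The genes lie on the plus strand of the mitochondrial chromosome, at the positions the table gives for hg19. MT-CO1 (ENSG00000198804) is at chrMT:5904-7445, MT-CO2 (ENSG00000198712) at chrMT:7586-8269, MT-ATP8 (ENSG00000228253) at chrMT:8366-8572, MT-ATP6 (ENSG00000198899) at chrMT:8527-9207, MT-CO3 (ENSG00000198938) at chrMT:9207-9990 and MT-CYB (ENSG00000198727) at chrMT:14747-15887. The table lists each as protein coding, and the genes have no introns. MT-ATP8 shares 46 of its 207 bases with MT-ATP6, and MT-ATP6 shares 1 base with MT-CO3. The sources used here do not say how reads in an overlap were counted or whether strand was used, so reads from the opposite strand of this genome, which is also transcribed, cannot be told apart from those of the mRNAs.

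Per kilobase of gene, MT-CO2 had the highest level of the 6, with 8063 to 20575 CPM per kilobase over the libraries. It was above MT-CYB, the next in order, in 6 of 6 libraries, by a mean log2 ratio of 0.52 ± 0.19 (SD, n = 6 libraries). MT-CYB had 5505 to 13929 CPM per kilobase and was above MT-CO1 in 6 of 6 libraries, by 0.15 ± 0.11 on the log2 scale. The level per kilobase of MT-CO1 and that of MT-ATP6 did not differ beyond their spread: MT-CO1 was the higher in 3 of 6 libraries and the mean log2 ratio was 0.0045 ± 0.15. MT-ATP6 was above MT-CO3 in 6 of 6 libraries, by 0.52 ± 0.13. MT-CO3 had 3384 to 9206 CPM per kilobase. In the whole table, averaged over libraries, MT-CO2, MT-CYB, MT-CO1, MT-ATP6 and MT-CO3 ranked 2, 3, 5, 7 and 11 of 48162 genes by CPM per kilobase. Whether reads shared with nuclear copies changed the order of the 6 was not tested.

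MT-ATP8 stood apart from the rest, at 15.4 to 51.7 CPM per kilobase. In every library the other 5 had 165 to 522 times as many counts per kilobase, MT-ATP6 of the same mRNA among them. As MT-ATP8 and MT-ATP6 lie on a single mRNA, their ratio compares counts given to each frame, not amounts of separate mRNAs. Relative to MT-ATP6, MT-ATP8 per kilobase was 0.430, 0.405 and 0.378% with the mimic, against 0.373, 0.329 and 0.337% with the control, in date order. The other short genes of this genome did not reach so low: MT-ND4L, of 297 bases, averaged 2592 CPM per kilobase and MT-ND3, of 346 bases, 2783 CPM per kilobase, against 28.5 for MT-ATP8. The part of the overlap with MT-ATP6 in the low count was not tested. The level of MT-ATP8 rests on 87 to 337 counts per library.

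**Figure D1:**
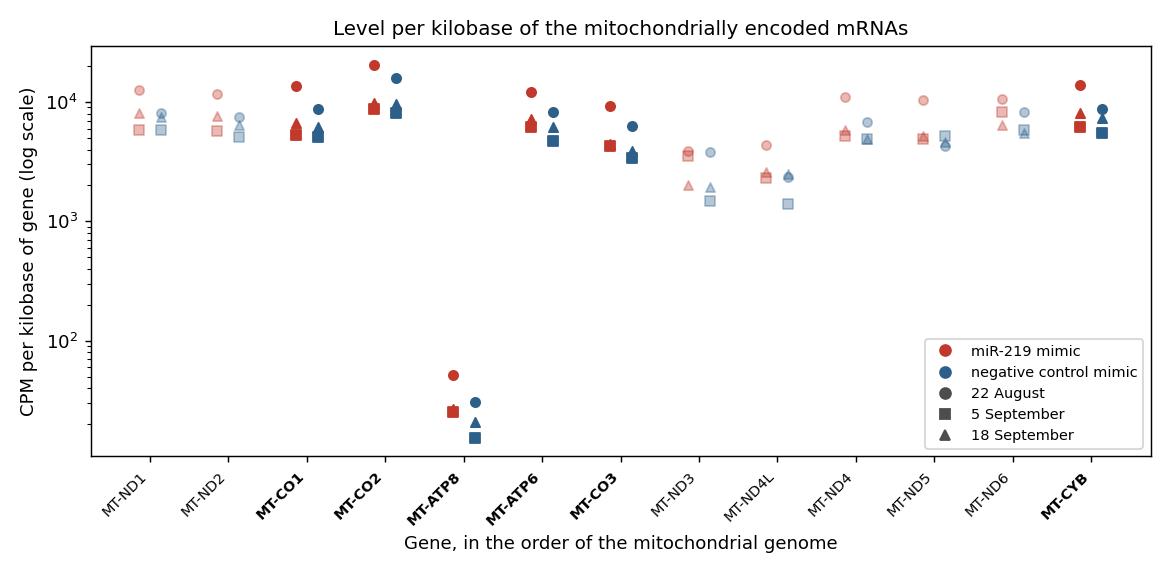
Level per kilobase (CPM per kilobase of gene, log scale) of the 13 mitochondrially encoded mRNAs in the order of the genome, with the complex III to V genes in bold and solid colour. Each point is 1 library, red for the miR-219 mimic and blue for the negative control mimic, with the shape giving the date; MT-ATP8 lies at 15.4 to 51.7, far below the rest.

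In complex III, MT-CYB took 1.59, 0.707 and 0.920% of a mimic library and 1.004, 0.628 and 0.832% of a control library on 22 August, 5 September and 18 September. Each mimic library was above the control library of its date, while the groups overlapped, because the control library of 22 August was above the mimic libraries of both September dates. The same overlap was seen for each of the other 5 mRNAs.

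In complex IV, MT-CO1, the catalytic subunit, took 2.09, 0.814 and 1.04% of a mimic library and 1.34, 0.784 and 0.948% of a control library, in date order. MT-CO2, which accepts electrons from cytochrome c, took 1.41, 0.601 and 0.672% with the mimic, against 1.09, 0.552 and 0.654% with the control. For both, the libraries of a September date lay close together and those of 22 August far apart. MT-CO3, the third core subunit, took 0.722, 0.335 and 0.349% with the mimic, against 0.492, 0.265 and 0.304% with the control.

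In complex V, MT-ATP6, part of the proton channel, took 0.819, 0.424 and 0.487% of a mimic library and 0.560, 0.320 and 0.420% of a control library. MT-ATP8, a small subunit of the membrane part, was counted 337, 145 and 114 times, or 10.7, 5.22 and 5.59 CPM, with the mimic. With the control it had 164, 110 and 87 counts, or 6.35, 3.20 and 4.30 CPM. MT-ATP8 had the largest ratios of the 6 between mimic and control libraries of a date, at 1.68, 1.63 and 1.30 for the share of counts, and also the widest counting error. Its 95% Wilson intervals reached 21.1% of the value on either side, against 0.790% at most for the other 5, and these intervals cover counting error only.

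**Figure D2:**
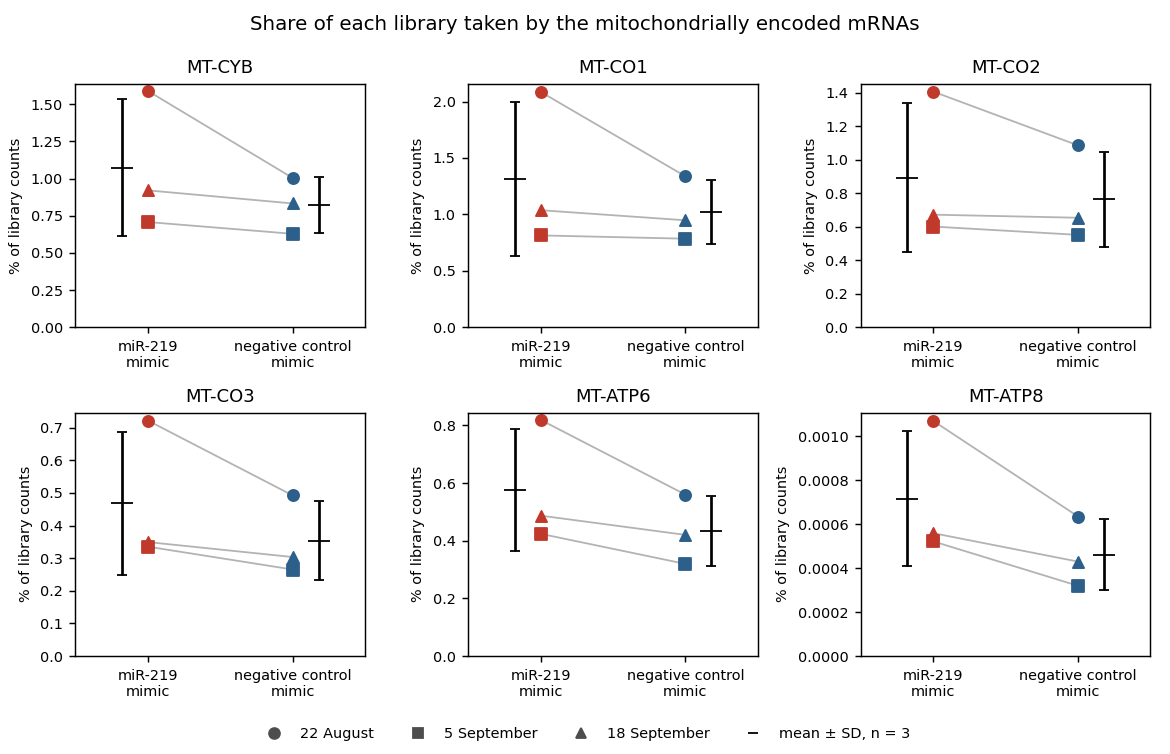
Percent of library counts taken by each of the 6 mRNAs (y axes start at 0) in the miR-219 mimic libraries on the left and the negative control mimic libraries on the right of each panel. Lines join the libraries of a date, and bars give the mean ± SD of 3 libraries; every line runs lower at the control end, and the 22 August libraries are highest in each group.

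Set against the spread between libraries, none of the 6 passed the test between mimics. In edgeR's quasi-likelihood fit over 16233 genes, 0 of 6 passed at a Benjamini-Hochberg adjusted p under 0.05 and 0 of 6 at an unadjusted p under 0.05. Over all genes 0% were called higher and 0% lower, and 3.01% had an unadjusted p under 0.05. Limma-voom called 0 of 6 as well (0 of 6 at an unadjusted p under 0.05). At an adjusted p under 0.05, DESeq2 called 0 of 6, where it called 0.00698% of genes higher and 0.0105% lower. In DESeq2 1 of 6 was higher at an unadjusted p under 0.05, where 0.824% of genes were. DESeq2 with the date as a term called 0 of 6 at an adjusted p, where it called 0.0252% of genes higher and 0.0441% lower, and at an unadjusted p under 0.05 it had 4 of 6 higher, where 0.715% of genes were. EdgeR with all genes kept called 0 of 6 at an adjusted p, where 0.0209% of genes were called higher and 0.0489% lower, and at an unadjusted p under 0.05 it had 5 of 6 higher, where 1.92% of genes were. These unadjusted shares in DESeq2 and in edgeR with all genes kept are over 28646 or 28658 genes, genes of low count included. They are therefore not comparable with shares of the 16233 filtered genes. With the date as a block, edgeR called 0 of 6, where it called 0% of genes higher and 0% lower. In that fit 3 of 6 (MT-CO3, MT-ATP6 and MT-ATP8) were higher at an unadjusted p under 0.05, where 3.02% of tested genes were. The log2 fold change, mimic over control, was 0.41 (SE 0.32) for MT-CYB, 0.39 (SE 0.36) for MT-CO1 and 0.26 (SE 0.37) for MT-CO2. MT-CO3 had 0.44 (SE 0.34), MT-ATP6 0.44 (SE 0.30) and MT-ATP8 0.67 (SE 0.34), and the adjusted p was 0.999 for each of the 6. The 95% CI of MT-ATP8 ran from −0.06 to 1.41 and that of MT-CO2 from −0.54 to 1.06, so a 2-fold higher level was inside both. The median of the 6 was 0.43, with 6 of 6 above 0, beside a median of 0.00 and 50.3% above 0 over all tested genes. Standard errors had a median of 0.34 for the 6 mRNAs and 0.18 for all tested genes.

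In normalized CPM (scaled with TMM factors), MT-CO1, the most counted of the 6, averaged 13479 ± 8028 CPM in mimic libraries and 10266 ± 3035 CPM in control libraries (SD, n = 3 each). MT-ATP8 averaged 7.34 ± 3.72 CPM in mimic libraries and 4.63 ± 1.69 CPM in control libraries. No member had its 3 mimic libraries all above its 3 control libraries (0 of 6), where 4.22% of all tested genes did. By date, the log2 ratio of normalized CPM was above 0 on all 3 dates for 5 of 6, where 15.6% of all tested genes had such a pattern. The exception was MT-CO1, with 0.73, −0.00296 and 0.10 in date order. The median of the 6 ratios was 0.68 on 22 August, 0.20 on 5 September and 0.15 on 18 September, beside medians of 0.02, 0.00 and −0.01 over all tested genes. Without the mimic library of 22 August, the log2 fold change was −0.07 for MT-CYB, −0.21 for MT-CO1, −0.33 for MT-CO2 and −0.11 for MT-CO3, and it stayed above 0 for MT-ATP6 (0.01) and MT-ATP8 (0.17). Without the control library of 5 September, which held the red cell transcripts, 6 of 6 were above 0 with a median of 0.26, and 0 of 6 were called by edgeR (0 of 6 at an unadjusted p under 0.05).

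**Figure D3:**
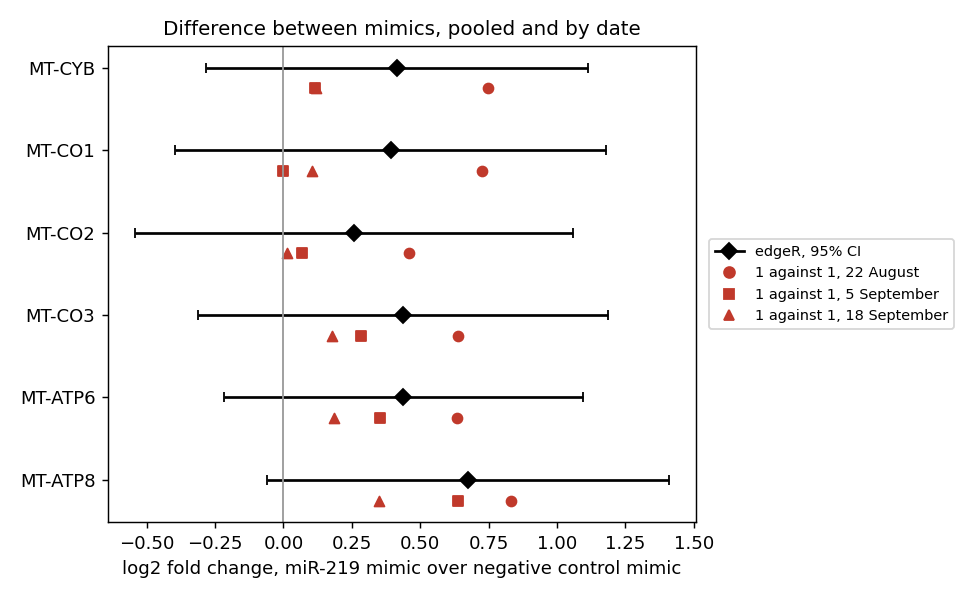
Log2 fold change of each mRNA, miR-219 mimic over negative control mimic. Diamonds give edgeR's estimate with its 95% CI, all of which include 0, and red symbols give the log2 ratio of normalized CPM of the mimic library over the control library of each date, largest on 22 August for each mRNA.

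Summed, the 6 mRNAs made up 6.63, 2.88 and 3.47% of the mimic libraries and 4.48, 2.55 and 3.16% of the control libraries, in date order. The mean was 4.32 ± 2.01% with the mimic and 3.40 ± 0.988% with the control (SD, n = 3 each). The difference of 0.929 percentage points had a two-sided exact permutation p of 0.6, where 3 against 3 libraries cannot go below 0.1. By date the difference was 2.14, 0.333 and 0.309 percentage points, so most of it came from 22 August. It was −0.222 without the mimic library of that date. AGO2 took a larger share with the mimic than with the control on 22 August and 18 September and a smaller one on 5 September. With AGO2 left out of the total, the summed share was 5.03 ± 2.29% with the mimic and 3.91 ± 1.04% with the control.

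The make-up of the set, which does not depend on the library total, gave no share that passed between mimics. MT-CO1 made up 29.9 ± 1.63% of the 6 with the mimic and 30.2 ± 0.489% with the control (SD, n = 3 each), and MT-CYB 25.02 ± 1.35% with the mimic and 24.5 ± 1.98% with the control. MT-CO2 made up 21.2, 20.9 and 19.4% with the mimic, against 24.2, 21.6 and 20.7% with the control in date order, lower with the mimic on each date, with groups that overlapped (exact permutation p = 0.3, adjusted over the 6 shares 0.75). MT-ATP6 made up 13.7 ± 1.21% with the mimic and 12.8 ± 0.456% with the control. MT-CO3 made up 10.9 ± 0.779% with the mimic and 10.3 ± 0.692% with the control. MT-ATP8 made up 0.0162, 0.0181 and 0.0161% with the mimic, against 0.0142, 0.0125 and 0.0136% with the control. Its groups did not overlap, which gave the smallest p the design allows (exact permutation p = 0.1, adjusted over the 6 shares 0.6). The share of MT-ATP8 rests on 87 to 337 counts per library, and the part of its overlap with MT-ATP6 was not tested. For MT-CYB the sign of the difference turned without the mimic library of 18 September (−0.201 percentage points) or the control library of 22 August (−0.470), and for MT-CO1 without the mimic library of 5 September (0.491).

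MT-ATP8 was also compared with MT-ATP6, which lies on the same mRNA. The ratio therefore compares the counts given to each frame, and it is not a measure of separate mRNAs. For 1000 counts of MT-ATP6 there were 1.31, 1.23 and 1.15 counts of MT-ATP8 with the mimic, against 1.13, 0.9998 and 1.02 with the control, in date order. Every mimic library was above every control library. The exact 95% binomial intervals overlapped within each date, at 1.17 to 1.45 with the mimic and 0.967 to 1.32 with the control on 22 August, 1.04 to 1.45 and 0.822 to 1.21 on 5 September, and 0.947 to 1.38 and 0.819 to 1.26 on 18 September. The mean log2 ratio was higher by 0.22 with the mimic (two-sided exact permutation p = 0.1, the smallest possible, adjusted over 2 ratios 0.2). Against the 7 complex I mRNAs of the same genome the 6 showed no difference beyond the spread: the ratio of summed counts was 0.999, 0.856 and 0.912 with the mimic, against 1.15, 0.820 and 0.951 with the control (exact permutation p = 0.8 on the log2 scale). Its direction also turned without the control library of 22 August (a log2 difference of 0.06, against −0.07 with all libraries).

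Dates were compared over both mimics. In the edgeR fit with date and mimic as terms, MT-CO2 on 22 August exceeded the mean of the other dates by 1.12 on the log2 scale (SE 0.13, adjusted p = 0.0174) and MT-CO3 by 1.06 (SE 0.13, adjusted p = 0.0230). These were 2 of the 6, where 0.333% of all tested genes were called higher on that date. The other 4 had log2 differences of 1.04 (MT-CO1), 1.005 (MT-ATP8), 0.85 (MT-CYB) and 0.85 (MT-ATP6) and did not pass in edgeR (adjusted p from 0.0674 to 0.154). In normalized CPM both libraries of 22 August were above the 4 later ones for 6 of 6, where 6.19% of all tested genes were. MT-CO2 averaged 13216 CPM on 22 August and 6031 CPM over the later libraries, and MT-CO3 6447 and 3048 CPM. The 7 complex I mRNAs of the same genome were also higher on 22 August in the edgeR fit. Their log2 differences ran from 0.59 (MT-ND5) to 0.94 (MT-ND3), with a median of 0.71, and 0 of them were called.

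On 5 September the 6 had log2 differences of −0.70 to −0.57 from the mean of the other dates, with 0 of 6 called lower by edgeR at an adjusted p under 0.05, where 0% of all tested genes were. At an unadjusted p under 0.05, 6 of 6 were lower on that date, where 5.98% of all tested genes were. On 18 September the differences were −0.48 to −0.18, with 0 of 6 called lower by edgeR at an adjusted p under 0.05, where 0.0493% of all tested genes were. At an unadjusted p under 0.05, 2 of 6 were lower, where 8.53% of all tested genes were. These contrasts share libraries, so they are not separate results. DESeq2 called all 6 higher on 22 August (adjusted p from 8.87e-11 to 0.0289), where it called 0.58% of genes, and 5 of 6 lower on 5 September, where it called 0.339%. With 1 library per group and date, no test of whether the difference between mimics varied with the date was possible.

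**Figure D4:**
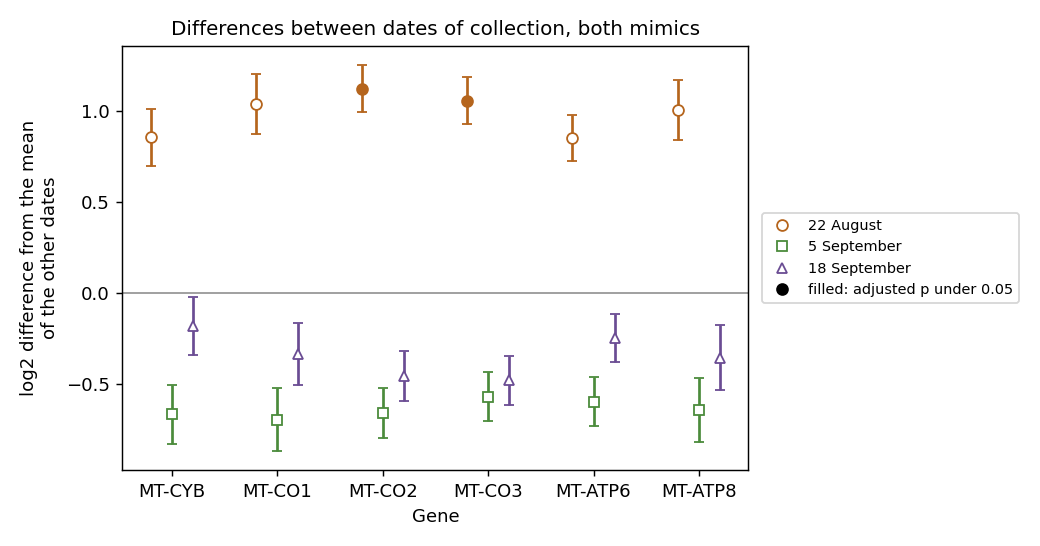
Log2 difference of each date from the mean of the other dates for the 6 mRNAs, from the edgeR fit with date and mimic as terms (bars, SE; filled symbols, adjusted p under 0.05). Values lie at 0.85 to 1.12 on 22 August and below 0 on both September dates, and MT-CO2 and MT-CO3 on 22 August are filled.

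Other genes of the same pathway were read from lists. The 7 complex I mRNAs of the mitochondrial genome had a median log2 fold change of 0.42 between mimics, close to the 0.43 of the complex III to V mRNAs, with 7 of 7 above 0 and 0 called in either direction. MT-ND4L (0.61), MT-ND5 (0.56) and MT-ND6 (0.39), membrane subunits of complex I, had the lowest p among them. Nuclear-encoded subunits of the same complexes had the other sign: 34 of 36 were below 0, with a median of −0.26 for the 9 of complex III, −0.22 for the 11 of complex IV and −0.25 for the 16 of complex V, beside 0.00 over all tested genes. None of the 36 passed in edgeR (0 at an unadjusted p under 0.05). By date the medians of complexes III, IV and V were −0.50, −0.70 and −0.66 on 22 August, 0.09, 0.30 and 0.23 on 5 September, and −0.12, −0.20 and −0.15 on 18 September, so these medians did not keep a direction, while the median of the 6 mitochondrial mRNAs was above 0 on each date.

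In complex III, the Rieske iron-sulfur protein UQCRFS1 averaged 173 ± 34.5 CPM in mimic libraries and 215 ± 44.3 CPM in control libraries (SD, n = 3 each), a log2 fold change of −0.31. The core protein UQCRC2 had −0.26 and the hinge protein UQCRH −0.28. In complex IV, COX6A1, COX6B1 and COX5B had −0.46, −0.25 and −0.25. In complex V, the catalytic-core subunit ATP5A1 averaged 618 ± 75.7 CPM in mimic libraries and 776 ± 119 CPM in control libraries, a log2 fold change of −0.33, the stalk subunit ATP5F1 had −0.32 and ATP5G1, which encodes the c-ring subunit, −0.28.

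Of 29 assembly and translation factors of complexes III to V, 28 were tested and 25 were below 0 (median −0.11). Their median by date was −0.29 on 22 August, 0.04 on 5 September and −0.13 on 18 September, so it too turned on 5 September. SURF1, which helps assemble complex IV, averaged 22.1 ± 1.55 CPM in mimic libraries and 27.2 ± 1.71 CPM in control libraries (log2 fold change −0.30, edgeR adjusted p = 0.999). ATPAF2, a chaperone of the ATP synthase head, had −0.24, and LYRM7, which serves the Rieske protein of complex III, had 0.25. Of 26 genes of mitochondrial transcription and RNA handling, 25 were tested and 21 were below 0 (median −0.12), with medians of −0.34, −0.01 and −0.08 in date order. FASTKD5, which is needed to mature mitochondrial mRNAs that no tRNA flanks, averaged 64.9 ± 3.44 CPM in mimic libraries and 79.0 ± 1.17 CPM in control libraries (log2 fold change −0.28, edgeR adjusted p = 0.999). HSD17B10, a part of mitochondrial RNase P, had −0.29 and FASTK had −0.24. In these lists edgeR called 0 genes between mimics, where it called 0% of all tested genes. It also called 0 between 22 August and the other dates, where 0.333% of all tested genes were called higher. SURF1 and FASTKD5 were the only genes tested in these lists with an unadjusted p under 0.05 between mimics. Over all tested genes 3.01% had such a p.

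**Figure D5:**
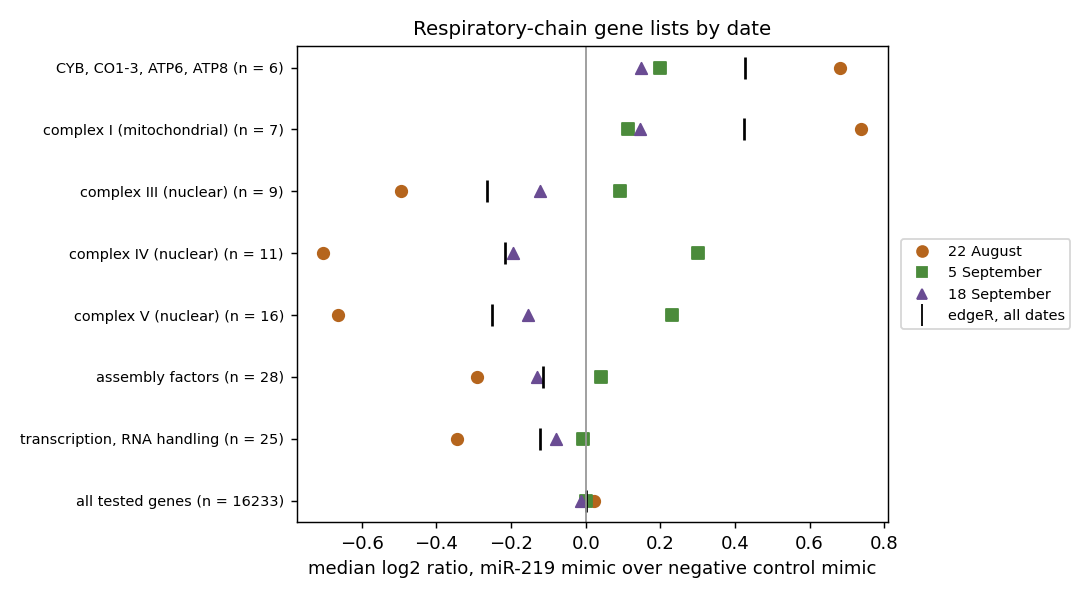
Median log2 ratio of normalized CPM, miR-219 mimic over negative control mimic, on each date for the 6 mRNAs, for related gene lists and for all tested genes (n, genes tested; black tick, median edgeR log2 fold change over all dates). The mitochondrially encoded lists lie above 0 on each date, and the nuclear subunit lists lie below 0 on 22 August and 18 September and above 0 on 5 September.

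A search by name found 17 nuclear pseudogene copies of the 6 genes in the table, of which MTATP6P1 alone had counts to test. Copies listed under other names were not searched for. MTATP6P1, on chromosome 1 (chr1:569076-569756 of hg19), was counted 16336, 5033 and 6177 times in mimic libraries and 8863, 5239 and 5237 times in control libraries, or 4.27 to 6.33% of the MT-ATP6 count of the same library. Its values ran beside those of MT-ATP6, with a log2 fold change of 0.44 between mimics (edgeR adjusted p = 0.999) and a log2 difference of 1.09 on 22 August (edgeR adjusted p = 0.0230). Reads of MT-ATP6 and MTATP6P1 may have been split by the counting, so both are uncertain to that extent. With the copies found by name added, the summed share was 4.36 ± 2.03% with the mimic and 3.42 ± 0.997% with the control.

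Across the 6 libraries, normalized CPM of the 6 mRNAs varied together. The summed level ran over a 2.78-fold range, and the log2 level of each correlated with the log2 sum at 0.954 (MT-ATP8) to 0.997 (MT-CO1), as a description over 6 libraries that share dates and to which each mRNA itself adds. Of other mitochondrial genes, MT-ND2 (r = 0.976), MT-ND4 (0.975), MT-ND1 (0.961), MT-ND4L (0.879) and MT-ND6 (0.833) were most alike. Of 9743 nuclear genes with a mean of 10 CPM or more, the most alike were the epithelial keratin KRT8 (0.990), the glucose-6-phosphatase G6PC3 (0.988), the desmosomal plakophilin PKP3 (0.981), the keratin KRT19 (0.980) and the antigen peptide transporter TAP1 (0.980). Their ranges were smaller, from 1.40-fold for KRT8 to 2.44-fold for TAP1. As the best of 9743 genes over 6 libraries, these nuclear genes have a high r by selection. Their r cannot be ranked against that of mitochondrial genes, picked from 7 candidates.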

How the data were processed

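The table the authors deposited gives raw counts of genes in 6 libraries, with gene lengths in bases. STAR 2.5, HTSeq 0.6.1 and the build hg19 are named in the submitters' processing notes, and strand and overlap settings are not given in the sources used here. Columns were matched to samples by mimic and date, with 0 columns left over.

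The 6 genes and all lists were chosen with earlier results of these data known. The quasi-likelihood test of edgeR 4.0.16 (R 4.3.3) was run on the counts (TMM factors, filterByExpr with min.count 10 and min.total.count 15, no block, Benjamini-Hochberg adjustment over 16233 genes, threshold 0.05). The 48162 gene IDs include 45038 matched to reference names, which were used for older symbols. DESeq2 1.42.0 and limma-voom (limma 3.58.1), a block for date, other factors, no filter and left-out libraries were alternatives. Standard errors were obtained from the fold change and its F statistic, and log2 values per date used a prior count of 2. Shares and ratios were compared with exact permutation tests over libraries (scipy 1.17.1). CPM per kilobase used unnormalized totals and the gene lengths of the table. The code was tested on simulated data. Named genes were the 6 mRNAs, the 3 genes of each list with the lowest p, and the 5 mitochondrial and 5 nuclear genes whose log2 CPM correlated best with the summed level. The libraries were paired by the date in their labels; deviations from the group means of libraries sharing a date correlated at 0.0466, 0.154 and 0.513 in date order over 16233 genes. No libraries of a group agreed within counting noise.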

Additional observations from a re-analysis of the deposited data

Results flagged for a closer look

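With 1 library per group and date, the difference between mimics had opposite signs on different dates for several values, and none of these differences between dates was tested. Within the 6 mRNAs, the share of MT-CYB differed by 1.58 percentage points (mimic minus control) on 22 August, −0.0984 on 5 September and 0.194 on 18 September. The share of MT-CO1 differed by 1.64, −2.54 and −0.0970 percentage points, that of MT-CO3 by −0.0941, 1.23 and 0.467, and that of MT-ATP6 by −0.133, 2.18 and 0.744, in the same order. The log2 ratio of the 6 mRNAs to the complex I mRNAs differed by −0.198, 0.0619 and −0.0612. MT-CO1 had log2 ratios of normalized CPM of 0.727, −0.00296 and 0.103, of which the value on 5 September is near 0.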

How the results depend on the processing

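There were 3 libraries per group, 1 per group and date, and input RNA was not used here. In the edgeR fit without a date term, differences between mimics in the 6 could not be told from the spread. That spread includes the differences between dates, and for MT-ATP8 counting error adds to it. None of the 6 mRNAs was called between mimics in the 17 alternative settings. Genes called higher and lower were 0 and 0 in the edgeR fit, 6 and 14 when genes of low count were kept, 2 and 3 in DESeq2, and 4 and 7 in DESeq2 with a date term, of which 0 were among the 6. With the replicate block (date) in edgeR, 0 of 6 and 0 genes were called again, log2 fold changes were 0.18 (MT-CO2) to 0.63 (MT-ATP8) with a median standard error of 0.14, and 3 of 6 (MT-CO3, MT-ATP6 and MT-ATP8) had an unadjusted p under 0.05, where 3.02% of genes did in that direction. The block changed no other call, with a sign-flip p of 0.25 for the summed share, the smallest that 3 dates allow. DESeq2 called 6 of 6 higher on 22 August and 5 lower on 5 September, where edgeR called 2 and 0. Of the counts of the 13 mitochondrially encoded mRNAs, the 6 made up 47.9% with the mimic and 49.1% with the control. The difference was −1.14 percentage points. The ribosomal RNAs of this genome, MT-RNR1 and MT-RNR2, were not among the genes counted. Without 1 library, differences in the summed share ran from −0.222 to 1.65 percentage points, in the share of MT-CYB among the 6 from −0.470 to 1.503, of MT-CO1 from −1.14 to 0.491, of MT-CO2 from −2.44 to −0.670, of MT-CO3 from 0.151 to 0.930, of MT-ATP6 from 0.427 to 1.60 (the last 3 with 1 direction throughout), and in the log2 ratio to complex I from −0.182 to 0.0597. Log2 fold changes ran from −0.0745 to 0.659 (MT-CYB), −0.209 to 0.662 (MT-CO1), −0.326 to 0.626 (MT-CO2) and −0.110 to 0.776 (MT-CO3). The cause of these changes was not tested.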

Other observations

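The 3 shortest genes of the mitochondrial genome in the table, MT-ATP8 (207 bases), MT-ND4L (297 bases) and MT-ND3 (346 bases), also had the 3 lowest mean levels per kilobase. Above them level did not follow length: MT-CO2, of 684 bases, was the highest and MT-ND5, of 1812 bases, was the fifth from the bottom. Of the 17 nuclear pseudogene copies found by name, 14 had 0 counts in every library and 2, MTATP8P1 and MTCYBP3, had 1 count in all.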
